A study of Homo sapiens with 4 samples.

Results

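The 6 keratin genes KRT7, KRT8, KRT18, KRT19, KRT80 and KRT81 and the 4 desmosome genes JUP, DSP, DSG2 and PKP3 were taken by name from the gene-level counts, 10 genes of 58560 in all. They were followed in 4 RNA-seq libraries of A549, an established cell line from a human lung adenocarcinoma. Glutamine-deprived cells (2 libraries) were washed and kept in glutamine-free DMEM with 10% FBS. Deprivation lasted 24 hours by the protocol, but the label of the second deprived library says 25 hours. Control cells (2 libraries) carry no treatment in the labels and were grown in DMEM with 10% FBS and antibiotics, which the description of the deprivation medium does not mention. The comparison asked how expression differs after a day without glutamine. Nothing in the labels says that the 2 libraries of a group came from separate cultures, so p-values measure the spread between these libraries, which may be technical.

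Keratins are the intermediate filament proteins of epithelial cells. Each filament pairs an acidic type I keratin (here KRT18 and KRT19) with a basic type II keratin (here KRT7, KRT8, KRT80 and KRT81). KRT8 and KRT18 are the founding pair of simple epithelia such as that of the lung, joined in many glands and ducts by KRT7 and KRT19, while KRT81 belongs to the keratins known from hair. Desmosomes are the adhesive spots that tie the keratin filaments of neighbouring cells together. Their cadherins (desmogleins such as DSG2, and desmocollins) span the membrane, the armadillo proteins plakoglobin (JUP) and the plakophilins (PKP3) line the plaque, and desmoplakin (DSP) anchors the filaments.

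After deprivation the keratins divided by gene. KRT80, KRT7 and KRT81 rose, KRT8, KRT18 and KRT19 fell, and among the desmosome genes JUP fell 4.78-fold while DSP, DSG2 and PKP3 differed by small amounts. By edgeR's quasi-likelihood test, with p adjusted over all genes tested, 4 of the 10 genes were called higher and 5 lower with 0.05 as the threshold. Over the whole table of 24527 tested genes, 25.2% were called higher and 24.4% lower, 49.6% in either direction. All 10 genes passed the filter on low counts, and in all 10 the groups did not overlap, as in 76.5% of tested genes. The median log2 fold change was -0.21 over the 10 genes and -0.06 over all tested genes. Of the 10 genes 7 had a fitted change of at least 2-fold, as had 37.3% of tested genes. KRT81 was below 2-fold with library size only (0.78 on the log2 scale) and without deprived replicate 1 (0.96). In bulk RNA such as this, fewer cells of a kind and less RNA per cell cannot be told apart.

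**Figure D1:**
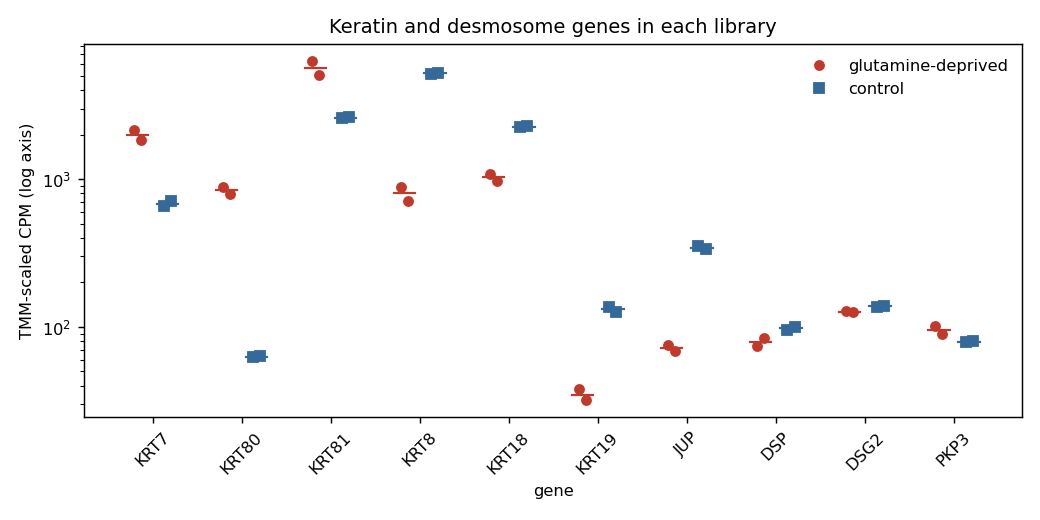
TMM-scaled CPM (log axis) of the 10 genes in each library, with deprived libraries as circles left of control libraries as squares and group means as bars. KRT80 sits at 795 CPM or more in deprived cells and at most 63.2 CPM in control cells, KRT8 at 886 CPM or less in deprived cells and at 5154 CPM or more in control cells.

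Levels are in CPM, counts scaled to a common library total after TMM, a factor that offsets differences in RNA composition. Library totals ran from 101496318 to 123414592 counts. Changes are given on the log2 scale, deprived over control, ± SE. With library size as the only scaling, the median change of all genes moved to -0.40. The calls over all genes, 6174 higher and 5982 lower, then became 4179 higher and 8565 lower, or 32.8% higher in place of 50.8%, so changes are relative to the scaling. Of 6 epithelial markers, 5 were lower and 0 higher in deprived cells, beside 24.4% lower and 25.2% higher of all tested genes. KRT8 and KRT18 are among these 5, so the count partly restates the genes followed here. CLDN4 was not called (0.43 ± 0.27). Junction genes and epithelial transcription factor genes, given below, went both ways. The summed level of the 6 markers was 2103 and 1818 CPM in deprived and 7815 and 7927 CPM in control libraries, most of it KRT8 and KRT18 themselves. The labels name basal cells. KRT5 and KRT14, defining markers of airway basal cells, had no count in 3 of the 4 libraries. TP63, another basal marker, had 0.479 and 0.765 CPM in deprived and 5.40 and 5.67 CPM in control libraries. SFTPC, the defining marker of alveolar type II cells, was under 0.2 CPM throughout. The 5 basal markers summed to 1.58 and 1.28 CPM in deprived and 8.68 and 7.67 CPM in control libraries. The 6 type II markers summed to 31.3 and 32.6 CPM in deprived and 44.8 and 43.3 CPM in control libraries. ABCA3 made up most of this, with 27.7 and 28.6 CPM in deprived and 41.2 and 41.3 CPM in control libraries. Of the type II markers, LAMP3 was called higher and ABCA3 and NAPSA lower. Fibroblast markers summed to 1.27 and 1.91 CPM in deprived and 2.39 and 2.25 CPM in control libraries, and endothelial markers to under 1 CPM in each. Blood markers summed to 1.72 and 1.47 CPM in deprived cells, against 27.2 and 14.4 CPM in control cells. CD14 made up 0.498 and 0.525 CPM of these in deprived cells, against 13.2 and 12.4 CPM in control cells, and the haemoglobin gene HBB 0.134 and 0.111 CPM in deprived cells, against 11.6 and 0.227 CPM in control replicates 1 and 2. The part of these markers in the results was not tested. Without control replicate 1, which stands apart in HBB, the 7 genes that changed by at least 2-fold kept their direction and call, while DSP and PKP3 lost theirs.

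KRT80, a type II keratin of epithelial cells, changed most of the 10. Its level was 890.2 and 795 CPM after deprivation, against 62.6 and 63.2 CPM in the control libraries. Both deprived libraries were far above both controls. The rise was 13.4-fold (log2 fold change 3.74 ± 0.10, edgeR adjusted p = 8.64e-06), and 2.88% of tested genes had a larger change in either direction. Its gene lies at chr12:52168996-52192000 (GRCh38, minus strand), shares no exon bases with another annotated gene and has 3 annotated transcripts. The coding transcript KRT80-201 took 82.8% and 81.9% of its counts in deprived and 84.6% and 75.2% in control libraries, so no other transcript led in either group.

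KRT7, the type II keratin of glandular and ductal epithelia, had 2160 and 1836 CPM in deprived cells and 656 and 706 CPM in control cells. The groups were well apart, and the rise was 2.93-fold (1.55 ± 0.12, edgeR adjusted p = 0.000132). Its coding transcript KRT7-201 held 85.9% and 85.8% of its counts in deprived cells and 93.2% and 93.6% in control cells. The 12 transcripts not annotated as coding held 13.5% and 13.5% in deprived cells, against 6.15% and 5.67% in control cells. With only coding transcripts summed the change was 1.37. KRT7 (chr12:52232520-52252186, plus strand) shares 282 of its 4093 exon bases with the antisense gene KRT7-AS, which had 11.7 and 15.9 CPM in deprived and 7.90 and 6.44 CPM in control cells. It shares a further 32 with KRT87P on the other strand, a pseudogene with 458 and 371 CPM in deprived and 186 and 200.5 CPM in control cells. The sources used here do not state that counting used strand, so reads of the shared bases cannot be told apart.

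KRT81, a type II hair keratin, was per length the most abundant of the 10 in deprived cells. It had 6299 and 5044 CPM in deprived libraries, against 2577 and 2641 CPM in control libraries. The deprived libraries differed more from each other than the controls did, but both were well above the controls. The rise was 2.17-fold (1.12 ± 0.14, edgeR adjusted p = 0.00115). KRT81 (chr12:52285913-52291534, minus strand) has near copies next to it, and its counts depend on how reads were divided among them. The coding sequences of KRT81 and its neighbour KRT86 were identical at 89.6% of alignment columns, and 30.3% of the 100-base words of transcript KRT81-201 also occurred in another gene's transcript. The coding stretch of 120 bases in which the copies differ most (coding bases 1207 to 1326, 19 differences) is shown because reads can be told apart there, with differing bases in capitals. Both sequences were taken from GENCODE release 29 transcripts, with coding bases counted from the A of the start codon.
KRT81: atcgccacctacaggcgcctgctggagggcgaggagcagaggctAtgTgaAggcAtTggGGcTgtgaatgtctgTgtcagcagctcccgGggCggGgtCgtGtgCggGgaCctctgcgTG
KRT86: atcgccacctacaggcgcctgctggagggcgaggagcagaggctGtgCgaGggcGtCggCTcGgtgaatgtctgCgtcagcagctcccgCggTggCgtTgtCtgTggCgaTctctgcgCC

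The other hair keratin loci beside KRT81 moved by similar amounts. KRT86 had 85.7 and 67.3 CPM in deprived cells and 35.5 and 38.3 CPM in control cells (1.05 ± 0.13, edgeR adjusted p = 0.000872). KRT83 had 32.8 and 27.8 CPM in deprived cells and 12.9 and 14.3 CPM in control cells (1.16 ± 0.12, edgeR adjusted p = 0.000423). As a share of the KRT81 count, KRT86 stood at 1.36% and 1.33% in deprived and 1.38% and 1.45% in control libraries. The pseudogene KRT87P stood at 7.28% and 7.36% in deprived and 7.21% and 7.59% in control libraries. These shares differed little between the groups, and whether the small loci carry reads of KRT81 was not tested. Adding KRT83, KRT85, KRT86 and KRT87P to KRT81, a sum chosen after their counts were seen, left its change at 1.12.

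KRT8, the type II partner of KRT18, was per length the most abundant of the 10 in control cells and fell furthest. It had 886 and 714.5 CPM in deprived libraries, against 5154 and 5235 CPM in control libraries. The highest deprived value was far below the lowest control value, a 6.49-fold decrease (-2.70 ± 0.14, edgeR adjusted p = 4.02e-05). By mean CPM it ranked 146 among all genes in deprived cells and 6 in control cells. KRT8 (chr12:52897187-52949954, minus strand) has 17 annotated transcripts with several starts, and the deposited counts divided them differently in the control libraries. KRT8-201 held 38.5% of the gene's counts in control replicate 1 and 3.17% in control replicate 2, and another coding transcript held 22.5% and 51.1%, although the sums agreed closely. Its transcripts are therefore not compared between the groups. The 51 annotated KRT8 pseudogenes together had 1817 and 1852 counts in deprived and 2151 and 1904 in control libraries, at most 2.39% of the gene's count. With them added the change was -2.67.

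The start of transcript KRT8-215, which held 25.2% and 29.8% of KRT8 counts in deprived and 22.1% and 18.8% in control libraries, has an upstream window in RefSeq's promoter table. Of the 10 genes, 4 (KRT8, JUP, DSP and DSG2) matched that table by symbol. The 250 bases before the KRT8 start (chr12:52926470-52926719, GRCh38.p14, minus strand) are shown because KRT8 had the largest fall, and hold none of 5 motifs searched on both strands, so no base is in capitals.
KRT8 upstream: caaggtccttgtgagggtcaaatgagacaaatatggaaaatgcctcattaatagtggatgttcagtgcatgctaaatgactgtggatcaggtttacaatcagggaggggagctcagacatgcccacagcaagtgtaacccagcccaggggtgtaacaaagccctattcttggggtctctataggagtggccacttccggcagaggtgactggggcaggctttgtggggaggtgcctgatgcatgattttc
The motifs and the share of all 35116 promoters that hold them in the same window were TGANTCA (AP-1, 6.57%), TGATGCAA (CEBP-ATF composite, 0.772%), GGGCGG (GC box, 42.6%), AACNGGTT (grainyhead, 1.49%) and TATAAA (the core promoter element, 10.7%). JUP and DSG2 each held 2 GC boxes and DSP 7, of which the 3 farthest from the start touch or overlap by 1 base. No other motif matched in the 4 windows. JUP had 2 entries, and the first was used. The windows precede RefSeq's starts, and all 4 reach into the gene spans annotated by GENCODE. Those of JUP, DSP and DSG2 do so in part, while the KRT8 window lies wholly inside the gene and so precedes an internal start. A match describes letters, not a site.

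KRT18, the type I partner of KRT8, also fell. It had 1088 and 978 CPM in deprived cells and 2235 and 2279 CPM in control cells. The groups were apart, a 2.18-fold decrease (-1.13 ± 0.10, edgeR adjusted p = 0.000265). Its coding transcript KRT18-202 held 43.6% and 49.8% of the gene's counts in deprived libraries, against 81.2% and 81.3% in control libraries. KRT18-207, a coding transcript whose annotated last exon runs on through what KRT18-202 splices out as its last intron, held 40.6% and 32.5% in deprived and 4.21% and 3.38% in control libraries. In raw counts KRT18-202 had 49611 and 52838 in deprived cells and 207301 and 204151 in control cells, whereas KRT18-207 had 46166 and 34475 in deprived cells and 10754 and 8495 in control cells. The fall of the gene's sum was therefore smaller than that of its main transcript. These are estimated counts per transcript and were not tested. KRT18 (chr12:52948871-52952901, plus strand) shares 525 of its 3218 exon bases with KRT8 on the other strand, and reads of these bases cannot be told apart. Of the 100-base words of KRT18-202, 18.4% occur in KRT8 transcripts. The 67 annotated KRT18 pseudogenes had at most 0.740% of the gene's count in any library, and with them the change was -1.12.

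KRT19, a type I keratin of simple and ductal epithelia, fell as well. It had 37.75 and 31.9 CPM in deprived cells and 137 and 127 CPM in control cells, with no overlap. The decrease was 3.78-fold (-1.92 ± 0.10, edgeR adjusted p = 4.27e-05). KRT19 (chr17:41523617-41528308, minus strand) shares no exon bases with another gene and no 100-base word with another transcript. For KRT8 the share of such words was 7.75%. With 50-base words the share was 1.79% for KRT19, 36.9% for KRT8, 52.5% for KRT18 and 44.6% for KRT81.

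**Figure D2:**
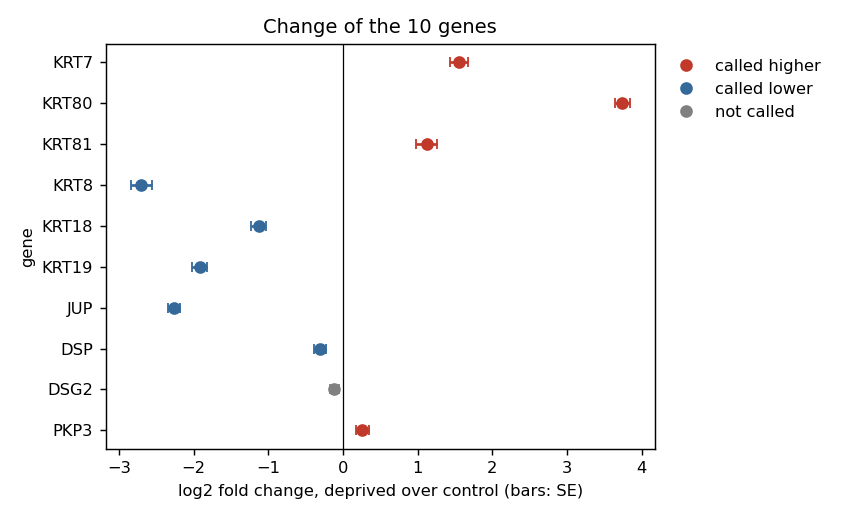
Change on the log2 scale, deprived over control, with SE bars, for the 10 genes. KRT80 (3.74), KRT7 (1.55), KRT81 (1.12) and PKP3 (0.26) were called higher, DSG2 (-0.12) was not called, and KRT8 (-2.70), JUP (-2.26), KRT19 (-1.92), KRT18 (-1.13) and DSP (-0.31) were called lower.

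Levels can be compared between genes only per length, for which TPM, counts divided by annotated transcript length and scaled to the same total in every library, were computed. In deprived cells the order of mean TPM was KRT81 (4696), KRT7 (2620), KRT18 (1068), KRT8 (677), KRT80 (352), PKP3 (58.0), KRT19 (40.2), JUP (36.9), DSG2 (35.1) and DSP (14.6). In control cells it was KRT8 (5307), KRT18 (3120), KRT81 (2746), KRT7 (967), JUP (228), KRT19 (195), PKP3 (61.5), DSG2 (48.0), KRT80 (33.2) and DSP (24.3). JUP and DSG2 overlapped in the deprived libraries (36.0 and 37.7 TPM for JUP, 32.8 and 37.4 TPM for DSG2), and JUP and KRT19 overlapped in the control libraries.

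The make-up of the type II keratins turned over. Of the summed TPM of 26 type II genes, KRT8 was 7.98% and 7.93% in deprived libraries, against 58.9% and 56.9% in control libraries. KRT81 was 55.9% and 54.5% in deprived libraries, against 29.5% and 30.5% in control libraries, and KRT7 was 30.2% and 31.5% in deprived libraries, against 10.2% and 11% in control libraries. KRT80 reached 3.98% and 4.32% in deprived libraries, against 0.360% and 0.366% in control libraries. Among 29 type I genes KRT18 led throughout, with 94.4% and 92.7% in deprived and 93.2% and 93.8% in control libraries. Type II genes summed to 8715 and 8293 TPM in deprived cells and 9765 and 8548 TPM in control cells. Type I genes summed to 1108 and 1177 TPM in deprived cells and 3526 and 3147 TPM in control cells. The ratio of type II to type I was 7.87 and 7.05 in deprived libraries, against 2.77 and 2.72 in control libraries. KRT8 over KRT18 alone went the other way, at 0.665 and 0.603 in deprived libraries, against 1.75 and 1.65 in control libraries. These TPM are shares of each library without TMM, rest on the deposited split among transcripts and were not tested.

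**Figure D3:**
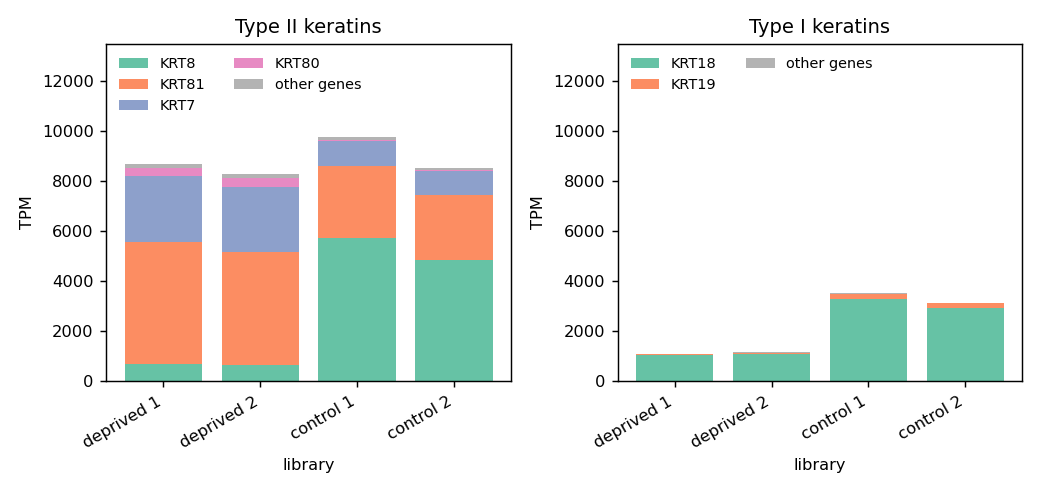
Stacked TPM of type II (left) and type I (right) keratin genes in each library, deprived libraries left of control libraries. KRT8 is 657.9 to 695.4 TPM in deprived cells and 4863 to 5750 TPM in control cells, and the type I total is at most 1177 TPM in deprived cells and at least 3147 TPM in control cells.

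Genes called in the same direction lay side by side. All type II keratin genes and KRT18 lie in a cluster on chromosome 12, where 27 coding keratin genes stand in order from KRT80 to KRT18. Of these, 10 were tested. At the KRT80 end 6 adjoining genes rose, namely KRT80, KRT7, KRT86, KRT81, KRT83 and KRT85 (0.96 ± 0.17 for KRT85, edgeR adjusted p = 0.00431). At the KRT18 end KRT4, KRT8 and KRT18 fell. KRT4, a keratin of the oesophageal lining, had 0.919 and 1.18 CPM in deprived cells and 4.57 and 5.52 CPM in control cells (-2.26 ± 0.24, edgeR adjusted p = 0.000502). KRT3 had no count in deprived cells and 0.122 and 0.263 CPM in control cells. It passed the filter on low counts only through the control libraries, so its lower call is not counted here. The genes between had too few counts to be tested. KRT86 shares sequence with KRT81, so the 6 rising genes are not independent of each other. As a share of the KRT81 count, KRT83 stood at 0.521% and 0.552% in deprived and 0.502% and 0.542% in control libraries. KRT85 stood at 2.09% and 1.87% in deprived and 2.08% and 2.36% in control libraries. Whether KRT83 and KRT85 carry reads of KRT81 was not tested.

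**Figure D4:**
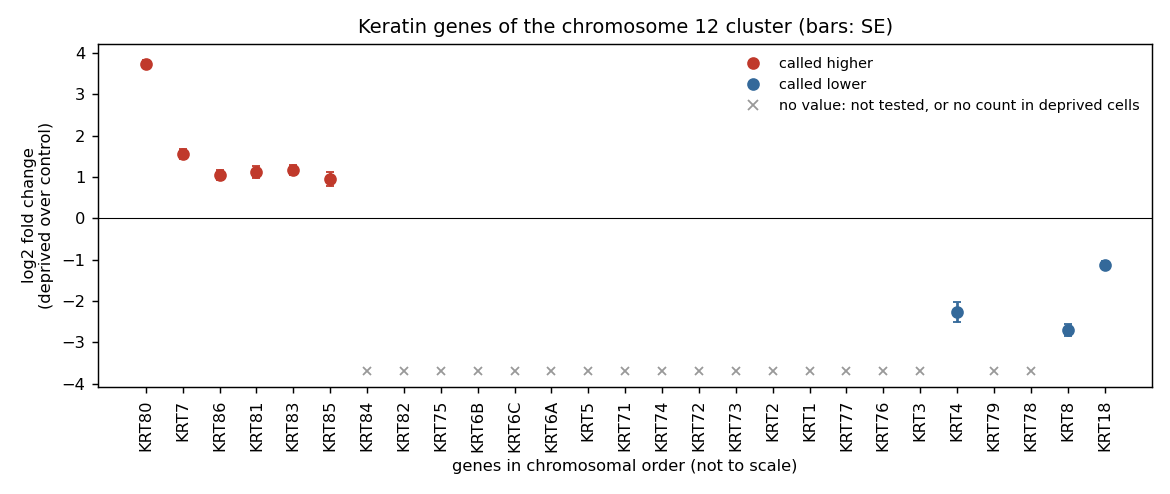
Change on the log2 scale, deprived over control, with SE bars, of keratin genes in chromosomal order, not to scale, with crosses along the bottom for genes with no plotted value. The 6 leftmost genes lie between 0.96 and 3.74 and KRT4, KRT8 and KRT18 between -2.70 and -1.13.

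Other keratins were mostly too low to test. Of 49 further keratin genes 15 were tested, 5 higher and 5 lower, with a median of -0.11. These shares, 33.3% each, stand near the 25.2% and 24.4% of all tested genes. The lower ones numbered 3 without control replicate 1 and 2 where at least 50 counts in 2 libraries were required. The 15 tested genes include KRT83, KRT85, KRT86, KRT3 and KRT4 above. KRT3, KRT12 and KRT20 are among the lower ones and passed the filter only through the control libraries, so the lower share partly rests on them. KRT12 had 8 and 8 counts in deprived and 44 and 42 in control libraries. KRT20 had 11 and 3 counts in deprived and 38 and 48 in control libraries. KRT3 has no measurable fold, and these genes all lie below that median. KRT10, the type I keratin of differentiating epidermis, rose to 13.8 and 15.2 CPM in deprived cells, against 5.85 and 5.11 CPM in control cells (1.40 ± 0.14, edgeR adjusted p = 0.000379). Of the 49, 15 had no count in any library.

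Among the desmosome genes, JUP changed most. Plakoglobin, which it encodes, links desmosomal cadherins to desmoplakin and also sits in adherens junctions. JUP had 75.1 and 68.8 CPM in deprived cells and 352 and 335 CPM in control cells, clearly apart. The decrease was 4.78-fold (-2.26 ± 0.08, edgeR adjusted p = 1.60e-05). JUP (chr17:41754604-41786931, minus strand) shares no exon bases and no 50-base word with another gene. Its leading transcript was JUP-201 in every library, with 72.2% and 71.9% of counts in deprived and 61.9% and 53.7% in control libraries.

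DSP, which encodes desmoplakin, had 74.8 and 83.6 CPM in deprived cells and 95.7 and 100.2 CPM in control cells. The groups did not overlap, but the change was small (-0.31 ± 0.08, edgeR adjusted p = 0.0225). The call was lost without either control replicate (adjusted p = 0.0561 and 0.104) and without deprived replicate 1 (adjusted p = 0.0886). DSP lies at chr6:7541575-7586717 (plus strand). Its coding transcripts were divided unevenly, DSP-202 holding 0.998% and 73.5% of counts in the deprived libraries and 78.3% and 63.7% in the control libraries.

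DSG2, the desmoglein of simple epithelia, had 128 and 126 CPM in deprived cells and 137 and 138 CPM in control cells. The groups stood next to each other without overlap, and the difference was not called (-0.12 ± 0.06, edgeR adjusted p = 0.185). Upper-quartile scaling made it a lower call (-0.22, adjusted p = 0.0278), and so did library size alone (-0.45, adjusted p = 0.00217). DSG2 lies at chr18:31498043-31549008 (plus strand).

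PKP3, plakophilin 3 of the plaque, had 102 and 89.0 CPM in deprived cells and 79.4 and 79.9 CPM in control cells. The higher deprived library was well above the controls and the other only slightly (0.26 ± 0.09, edgeR adjusted p = 0.0470). Scaled by library size alone the change turned to -0.08 (adjusted p = 0.413). The call was also lost without either control replicate (adjusted p = 0.158 and 0.152) and without deprived replicate 1 (0.17, adjusted p = 0.161). PKP3 lies at chr11:392614-404908 (plus strand).

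The other desmosome genes moved in both directions. Of 9, 5 were tested, 3 higher and 1 lower, with a median of 0.99. These shares of the 5, 60% and 20%, stand beside 25.2% and 24.4% of all tested genes. PKP2, the most widely expressed plakophilin, had 105 and 103 CPM in deprived cells and 32.1 and 32.7 CPM in control cells (1.69 ± 0.07, edgeR adjusted p = 2.00e-05). The desmocollin genes DSC2 (1.42 ± 0.17) and DSC3 (0.99 ± 0.12) rose, each at under 20 CPM. PERP, a membrane protein of desmosomes and a p53 target, had 238 and 221.5 CPM in deprived cells and 386 and 434.5 CPM in control cells (-0.84 ± 0.09, edgeR adjusted p = 0.000576). DSG1, a desmoglein of the epidermis, was under 0.2 CPM throughout. Per length, DSG2 over JUP was 0.913 and 0.992 in deprived libraries, against 0.205 and 0.219 in control libraries.

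Genes that tie keratins to the matrix and to other parts of the cell rose more often than they fell. Of 12 hemidesmosome and linker genes 7 were higher and 2 lower (median 0.45). That is 58.3% and 16.7%, beside 25.2% and 24.4% of all tested genes. With library size only 4 were higher and 3 lower, beside 4179 and 8565 of all 24527 tested genes. PLEC, the plectin that cross-links keratin filaments, had 275 and 342 CPM in deprived cells and 120.5 and 107 CPM in control cells (1.44 ± 0.13, edgeR adjusted p = 0.000237). LAMA3, which encodes a laminin chain of the matrix under hemidesmosomes, fell (-0.77 ± 0.08), and EPPK1, which encodes the keratin-binding epiplakin, rose to 4.35 and 4.56 CPM in deprived cells, against 0.928 and 0.644 CPM in control cells (2.50 ± 0.26).

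Adherens and tight junction genes went both ways. Of 26 tested, 11 were higher and 8 lower (median 0.32), or 42.3% and 30.8%, beside 25.2% and 24.4% of all tested genes. CDH1, the epithelial cadherin, had 6.16 and 4.99 CPM in deprived cells and 42.7 and 37.8 CPM in control cells (-2.85 ± 0.14, edgeR adjusted p = 3.11e-05). CLDN1, a tight junction claudin, had 1074 and 1003 CPM in deprived cells and 55.4 and 56.8 CPM in control cells (4.21 ± 0.09, edgeR adjusted p = 8.64e-06). OCLN (1.91 ± 0.07) and TJP1 (1.74 ± 0.08), which encode occludin and the scaffold ZO-1, rose too. CTNNB1, the armadillo relative of JUP that encodes beta-catenin, had 568 and 542 CPM in deprived cells and 463 and 493 CPM in control cells and was not called (0.22 ± 0.08, edgeR adjusted p = 0.0679).

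**Figure D5:**
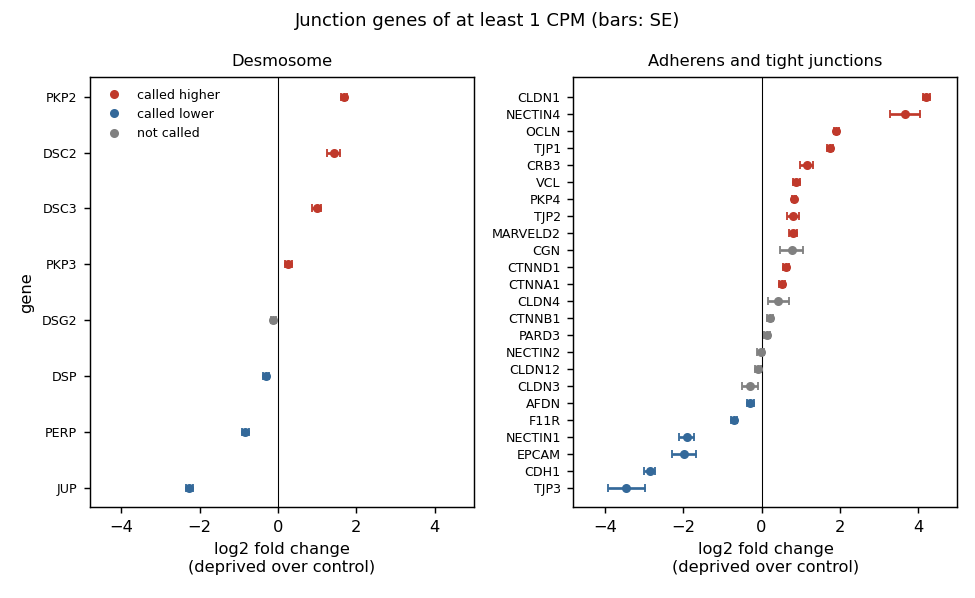
Change on the log2 scale, deprived over control, with SE bars, for desmosome genes (left) and adherens and tight junction genes (right) of at least 1 CPM on average. JUP (-2.26) is lowest and PKP2 (1.69) highest of the desmosome genes, and CLDN1 (4.21) and CDH1 (-2.85) lie far apart among the other junction genes.

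Of transcription factor genes known from epithelia, 4 of 12 tested were higher and 4 lower (median 0.15). These shares, 33.3% each, stand near the 25.2% higher and 24.4% lower of all tested genes. NKX2-1, among the higher ones, passed the filter only through the deprived libraries, with 81 and 88 counts there and 2 and 7 in control libraries. ELF3, an ETS factor of epithelial cells, had 119 and 117 CPM in deprived cells and 379 and 371 CPM in control cells (-1.66 ± 0.07, edgeR adjusted p = 2.30e-05). FOXA1 (-1.71 ± 0.09) and EHF (-4.63 ± 0.10) fell. KLF4, a factor of epithelial differentiation, had 57.3 and 54.2 CPM in deprived cells and 9.32 and 8.51 CPM in control cells (2.64 ± 0.09).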

How the data were processed

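Poly-T selected RNA of A549 cells was sequenced, per the labels' protocols. Per the submitters' processing notes, HISAT2 2.0.5, featureCounts 1.5.0-p3, DESeq2 1.20.0 and the build hg38 were used, with no roles given; the division of reads among transcripts is not given in the sources used here. Each deposited file, from the authors, holds 1 whole number per transcript (229420 transcripts), treated here as estimated counts because overlapping transcripts divide reads. They were summed to genes with GENCODE release 29 (GRCh38), which matched 205306 transcripts and 98.04% to 98.25% of counts; the rest was left out.

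Genes were filtered with filterByExpr, scaled with TMM (0.862 and 0.919 for deprived, 1.15 and 1.10 for control) and tested over all 24527 genes with edgeR 4.0.16 in R 4.3.3 (two-sided, Benjamini-Hochberg). Replicates differed beyond sampling noise (chi-square per degree of freedom 43.6 for deprived, 31.0 for control). The fit was tested on simulated data. Alternatives were other scalings, filters, DESeq2 1.42.0, limma-voom (limma 3.58.1), a replicate block, each replicate left out, coding transcripts only, and copies added. The genes and lists were chosen with earlier results of these data known. Named genes were the 10, up to 4 of each list with the smallest p at 1 CPM or more, and 8 fixed genes. CTNNB1, KRT85, KRT3, KRT12, KRT20, KRT87P, NKX2-1, NEFH and the marker genes named were chosen after their values were seen. A gene that the rule names and a stretch of sequence are not reported here. The authors' deposited table of long non-coding RNAs was not used here.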

Additional observations from a re-analysis of the deposited data

How the results depend on the processing

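KRT7, KRT8, KRT18, KRT80 and KRT81 kept their direction and call under every alternative run, and KRT19 and JUP under all but 1. Log2 fold changes ran from 1.21 to 1.68 (KRT7), -3.04 to -2.54 (KRT8), -1.47 to -1.04 (KRT18), -2.26 to -1.79 (KRT19), 3.41 to 3.84 (KRT80), 0.78 to 1.29 (KRT81) and -2.59 to -2.18 (JUP), leaving aside sums of transcripts not annotated as coding. With those alone, added after the data were seen, calls were lost for KRT19 (-2.63), JUP (-3.03), DSP (-1.39) and PKP3 (0.33), where they hold at most 1.12% of the gene's counts. Leaving out a replicate leaves a lone library, assumed to vary like the other group; DSP then ran from -0.37 to -0.22, and its call ended without either control or deprived replicate 1. DSG2 became called with upper-quartile scaling (-0.22) and library size only (-0.45). PKP3 turned to -0.08 with library size only and lost its call with upper-quartile scaling (0.15), no filter (0.26), at least 50 counts in 2 libraries (0.21), coding transcripts only (0.20) and without either control or deprived replicate 1 (0.17 to 0.37 over the 4 replicates left out). With the replicate block PKP3 also lost its call (0.26), no other of the 10 did, and 5529 genes were higher and 5079 lower. Same-numbered libraries did not deviate together (r = -0.0235 across genes, which are not independent replicates). The causes were not tested. With 2 libraries a group, changes near the size of PKP3's are at the limit of what these data resolve.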

Other observations

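Other intermediate filament genes mostly fell. Of 15 tested, 3 were called higher and 9 lower (median log2 fold change -0.89). These shares, 20% and 60%, stand beside 25.2% and 24.4% of all tested genes. With library size only 1 was higher and 10 lower, beside 4179 and 8565 of all 24527 tested genes. NEFH, among the lower ones, passed the filter only through the control libraries, with 35 and 16 counts there and 5 and 4 in deprived libraries. VIM, the vimentin of mesenchymal cells, had 755 and 669 CPM in deprived cells and 809 and 917 CPM in control cells and was not called (-0.28 ± 0.11, edgeR adjusted p = 0.0757), although it was called lower in 6 alternatives, among them library size only (-0.61). The synemin gene SYNM (-1.69 ± 0.08) and the nuclear lamin gene LMNB1 (-1.39 ± 0.08) fell, and so did IFFO2 (-0.89 ± 0.07) and NES (-3.08 ± 0.29), the nestin gene of progenitor cells, which was at most 3.00 CPM.

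Mesenchymal genes went both ways, with 5 of 15 higher and 4 lower (median -0.24). These shares, 33.3% and 26.7%, stand near the 25.2% and 24.4% of all tested genes. CDH2, the neural cadherin, had 204 and 177 CPM in deprived cells and 60.1 and 63.4 CPM in control cells (1.62 ± 0.09), and per length it stood at 77.9 and 86.2 TPM in deprived and 38.6 and 29.1 TPM in control cells, where CDH1 had 2.27 and 1.92 TPM in deprived and 20.9 and 15.1 TPM in control cells. The repressor genes ZEB2 (2.17 ± 0.09) and ZEB1 (1.11 ± 0.08) rose, ZEB1 losing its call when only coding transcripts were summed, with a change of 1.46 ± 1.64 (adjusted p = 0.481). FN1, the fibronectin gene, fell to 491 and 495 CPM in deprived cells, against 1019 and 1058 CPM in control cells (-1.08 ± 0.08). Among keratins too low to test, KRT5 had 0.753 CPM and KRT14 0.245 CPM in control replicate 1 and no count in the other libraries.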
